A study of Mus musculus with 4 samples.

Results

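Plasmacytoid dendritic cells of the mouse liver were described here in single-cell RNA sequencing of nonparenchymal cells, as 352 of 25861 kept cells. Kept cells had at least 200 genes with a molecule and at most 25% of their molecules from mitochondrial genes. A kept cell was a member with at least 5 unique molecular identifiers (UMIs, the counted RNA molecules) of Siglech, at least 2 of Ccr9, Cox6a2, Ly6d and Klk1 summed, at most 2 of the Kupffer cell lectin Clec4f and at most 1 of the B cell receptor gene Cd79a. The endothelial genes Kdr, Ptprb, Stab2, Oit3, Ehd3 and Egfl7 also had to make up less than 0.1% of the cell's UMIs. Members were thus chosen by the measured UMIs of these genes, so the levels of those genes, and the difference between members and other cells in any gene, are given as a description without a test.

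The study compared a model of liver fibrosis with its vehicle. All animals were male, wild type and 8 to 10 weeks old. They were given either CCl4 (carbon tetrachloride, a hepatotoxin) mixed 1 to 9 with corn oil, or corn oil alone. Injections were intraperitoneal, at 10 µl per g of body weight, 2 per week for 5 weeks, and livers were taken 48 hours after the last. There were 2 CCl4 mice and 2 corn oil mice, each sequenced as 1 library. The labels do not name the strain. Most hepatocytes, dead cells and erythrocytes had been removed before capture, so a share of cells is a share of this preparation and not of the liver. The chemokine gene Ccl4, which appears below in gene spelling, is unrelated to the chemical CCl4.

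Plasmacytoid dendritic cells are rare bone marrow-derived cells that recognise viral nucleic acids in endosomes through Tlr7 and Tlr9 and are known for rapid secretion of type I interferon. The transcription factor Tcf4 drives and maintains their identity, and Id2, an inhibitor of such factors, favours conventional dendritic cells in its place. In the mouse they carry the surface lectin Siglech and the gut-homing chemokine receptor Ccr9, and at rest they present antigen on MHC class II less well than conventional dendritic cells. They carry marks of partial kinship with lymphocytes, such as transcripts of immunoglobulin genes and of the DNA polymerase Dntt.

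The members numbered 120 and 90 in the CCl4 libraries and 93 and 49 in the corn oil libraries. Their UMIs, summed per mouse for every comparison, came to 592987 and 478122 in CCl4 mice and 374095 and 165065 in corn oil mice, with a median per cell of 4643 and 4622 against 4065 and 3350. Corn oil 2 was thus both the smallest and the shallowest. Levels below are CPM, a gene's UMIs scaled to the same total in every sum. Between pairs of libraries 48 to 74 cell indices were shared, and 0 among members. The table of CCl4 1 came from a separate run of the authors' pipeline, so a run effect and that mouse cannot be told apart. The labels do not say whether mice were handled on separate days, and p-values measure the spread between these 4 mice.

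Genes that the rule did not use were checked against the name of the cells. Transcription factors of the lineage were far above other cells. Runx2 had 1361 and 1527 CPM in CCl4 members and 1954 and 1581 CPM in corn oil members, Spib had 966 and 751 CPM against 1262 and 957 CPM, and Bcl11a had 829.7 and 799 CPM against 962 and 1248 CPM. Tcf4 had 2408 and 2022 CPM in CCl4 members and 2491 and 3174 CPM in corn oil members, at least 5.14 times the level of other cells in each library. Irf8, a factor of the whole dendritic lineage, had 4735 and 3556 CPM in CCl4 members and 5349 and 5101 CPM in corn oil members. Tlr7 was between 146 and 254 CPM in the 4 libraries, while Tlr9 was thinly sampled, at 11.8 and 10.5 CPM in CCl4 members and 2.67 and 18.2 CPM in corn oil members. Cobll1 was also low, between 18.6 and 66.6 CPM, and counted little towards the label.

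The 15 genes outside the rule that stood furthest above other cells in their least favourable library were led by Havcr1, which encodes the phosphatidylserine receptor TIM-1, at 324 times the level in other cells. Havcr1 had 137 and 94.1 CPM in CCl4 members and 144 and 188 CPM in corn oil members, against at most 0.427 CPM in every library of other cells. Next came the calcium pump Atp2a1, the progestin receptor family gene Paqr5, the activating receptor Cd300c and Dntt, each at least 212 times above other cells. The immunoglobulin light chain gene Iglc3 was also among the 15. The heavy chain gene Ighm had 1317 and 1182 CPM in CCl4 members and 1230 and 1393 CPM in corn oil members, while the B cell receptor subunit Cd79b, which the rule did not use, stayed between 15.2 and 23.0 CPM.

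Detection of several genes was compared at equal depth, where a member without a UMI need not lack the gene. After thinning every cell to 2000 UMIs, Ly6c2 was found in 89.2% and 96.7% of CCl4 members and 93.5% and 87.8% of corn oil members. Cd4 was found in 39.2% and 42.2% of CCl4 members and 43.0% and 53.1% of corn oil members, Dntt in 25.8% and 26.7% against 29.0% and 32.7%, and Cd8a in 22.5% and 17.8% against 17.2% and 16.3%. In all other cells thinned alike, the shares were at most 1.32% for Cd4, 0.210% for Dntt and 0.588% for Cd8a. Unthinned, Dntt was found in 45.8% and 46.7% of CCl4 members and 45.2% and 38.8% of corn oil members. UMIs of the division genes Mki67 or Top2a were seen in 0 and 3 members of CCl4 mice and 5 and 1 members of corn oil mice.

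At the threshold, median Siglech was 19 and 18 UMIs per member in CCl4 mice and 22 and 19 in corn oil mice. Only 0 and 2 CCl4 members and 0 and 2 corn oil members had exactly 5 Siglech UMIs, and 1 and 0 CCl4 cells and 0 and 0 corn oil cells that met the other conditions had 4. The endothelial limit removed more. It took 21 and 22 otherwise eligible cells, or 14.9% and 19.6%, from CCl4 libraries and 35 and 30, or 27.3% and 38.0%, from corn oil libraries. Of the cells it removed, 5 and 1 in CCl4 libraries and 1 and 7 in corn oil libraries lay between 0.1% and 0.2%, just outside it.

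Plasmacytoid dendritic cells made up a larger share of kept cells in both CCl4 mice than in either corn oil mouse. The share was 1.95% in CCl4 1 (95% exact binomial interval 1.62 to 2.33) and 1.60% in CCl4 2 (1.29 to 1.96), against 1.36% in corn oil 1 (1.10 to 1.66) and 0.676% in corn oil 2 (0.501 to 0.893). The means were 1.78% ± 0.250 in CCl4 mice and 1.02% ± 0.482 in corn oil mice (SD, n = 2 each), a ratio of 1.75. The groups did not overlap, and the exact two-sided permutation test gave p = 0.333, the smallest that 2 against 2 allows. Intervals cover counting error only.

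The direction of this share depended on what the cells were counted against. Only 37.0% and 44.7% of kept cells in CCl4 mice lay below the endothelial limit that members had to meet, and 11.4% and 11.9% in corn oil mice. Among those cells, members made up 5.28% and 3.58% in CCl4 mice and 11.9% and 5.69% in corn oil mice, a mean of 4.43% against 8.80% and a log2 ratio of -0.99 in place of 0.81. Without the endothelial limit the shares were 2.30% and 1.99% in CCl4 mice and 1.87% and 1.09% in corn oil mice. Leaving out corn oil 2 lowered the log2 ratio to 0.39, and leaving out corn oil 1 gave 1.39. Whether more members, or fewer captured cells of other kinds, set these shares cannot be told apart.

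**Figure D1:**
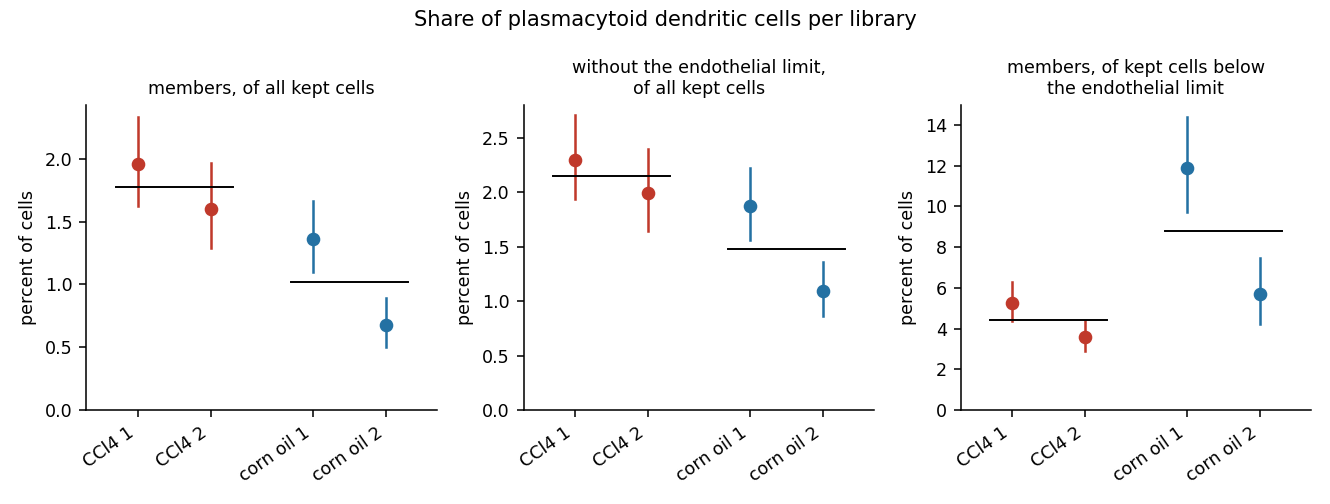
Percent of cells that were plasmacytoid dendritic cells in each of the 4 libraries (points) with 95% exact binomial intervals (vertical lines) and group means (horizontal lines), for 3 ways of counting. CCl4 lies above corn oil at 1.78% against 1.02% of all kept cells, and below it at 4.43% against 8.80% of the cells under the endothelial limit.

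CCl4 against corn oil was tested in the members' summed UMIs with edgeR's quasi-likelihood test and Benjamini-Hochberg adjustment over 6000 genes. In CCl4 members 14 genes fell, 0.233% of those tested, and 48 rose, 0.8%, together 1.03%. The genes that fell include the C-type lectins Cd209a and Cd209d, the chemokine Ccl4, the chemokine receptor Cxcr4, the MHC class II chains H2-Aa and H2-Ab1, Cd7 and the mRNA-decay factor Zfp36l2. Of the genes that rose, 2 belong to the list of Kupffer cell markers, 4 to that of monocytes and neutrophils and 6 to that of stellate cells. They also include the interferon-stimulated genes Slfn5 and Oasl2 and the inhibitors of differentiation Id2 and Id3. The median log2 fold change over all genes was -0.003. All 62 had groups that did not overlap, as had 37.0% of all genes tested. With corn oil 1 left out, the sole remaining corn oil library was the one with 49 members, and 0 genes passed by edgeR, although 552 had an unadjusted p under 0.05. Without the 5 members of highest doublet score, all from CCl4 mice, 4 rose (Ccl6, Cxcl2, Lyz2, Slfn5) and 4 fell (Car3, Ccl4, Cd209a, Cd209d).

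RNA of other cells moved with the groups. Of the members, 17 of 210 in CCl4 mice and 7 of 142 in corn oil mice drew at least 0.5% of their UMIs from lists of Kupffer, monocyte and neutrophil, stellate, hepatocyte and erythroid genes, and they held 15.7% and 5.06% of the members' UMIs. The 13 Kupffer genes summed to 395 and 1219 CPM in CCl4 members and 80.2 and 78.8 CPM in corn oil members. Of these genes, 13 and 11 were detected against 9 and 6. The rule capped Clec4f, which cut eligible cells from 145 to 143 and 114 to 113 in CCl4 libraries. In corn oil libraries the cap cut them from 134 to 128 and 84 to 80. The Kupffer sums thus depend in part on the rule. Timd4 and Marco, which mark resident Kupffer cells, had 0 UMIs in CCl4 2 and in both corn oil libraries. The 12 monocyte and neutrophil genes summed to 839.8 and 1433 CPM against 457 and 448 CPM, and the 12 stellate genes to 1177 and 2171 CPM against 356 and 133 CPM. The 12 monocyte genes were detected 11 and 9 against 4 and 3, and the neutrophil genes S100a8 and S100a9 had UMIs in CCl4 1 alone. The 14 hepatocyte genes summed to 279.9 and 655 CPM in CCl4 members and 259 and 624 CPM in corn oil members, which overlapped. The 15 endothelial genes summed to 922 and 1324 CPM against 722 and 812 CPM. The rule also limited endothelial RNA in members and removed more cells for it in corn oil libraries, so this sum depends in part on the rule. The part of this RNA in the results was not tested beyond leaving those members out.

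Most of the genes that rose were carried by these few members. Those that belong to the lists were bound to show this in part. For the median gene that rose, 85.7% of its CCl4 UMIs lay in the 17, and for 41 of 48 genes more than 50% did. Thbs1 (thrombospondin 1) had 105 and 89.9 CPM in CCl4 members and was listed at 0 in both corn oil libraries, at least 17.6-fold higher against a floor of 3 counts over the group. It was found in 13 of 210 CCl4 members, 1 of which held 34 of its 105 UMIs. The monocyte and macrophage chemokine Ccl6 had 118 and 151 CPM against 2.67 and 6.06 CPM, a ratio of 35.7 with a counting interval of 9.71 to 298. That interval treats pooled UMIs as independent and does not cover the spread between members or between mice. Collagen Col1a1 had 80.9 and 736 CPM in CCl4 members against 8.02 and 0 CPM in corn oil members, and 1 member held 341 of its 400 UMIs in CCl4 mice. Lysozyme Lyz2 had 324 and 895 CPM against 50.8 and 54.5 CPM, with 90.6% of its CCl4 UMIs in the 17, and the complement subunit C1qb had 103 and 399 CPM against 13.4 and 12.1 CPM, with 90.5%.

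Levels in the surrounding cells lay higher still. Of the 48 genes that rose, 43 were lower in the members than in other cells in both CCl4 libraries and 0 were higher in both, whereas 12 of the 14 that fell were higher in the members than in other cells in both corn oil libraries. Lyz2 in all other cells, for comparison, had 3140 and 4655 CPM in CCl4 mice and 1404 and 2345 CPM in corn oil mice. The fit was repeated without the 24 members rich in other lineages, a step chosen after the values had been seen, whose lists hold several of the genes that rose. Then 3 genes rose, 0.0555% of 5408, and 12 fell, 0.222%. The 3 were Slfn5, Id2 and Ifi44. All 12 had also fallen with every member included, and all 14 kept a negative fold change.

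**Figure D2:**
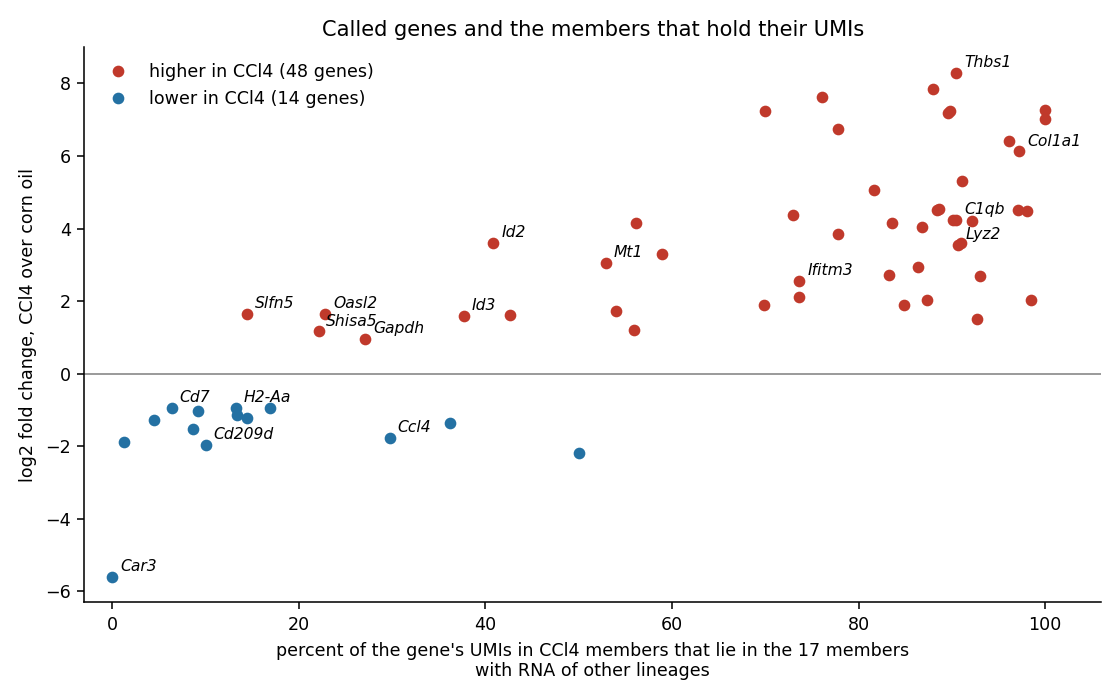
Log2 fold change (CCl4 over corn oil) of the 62 called genes against the percent of the gene's UMIs in CCl4 members that lay in the 17 members with RNA of other lineages. Genes that rose cluster at the right, with a median of 85.7%, while Slfn5 and Oasl2 and nearly all genes that fell lie at the left. The axis counts CCl4 UMIs only, so genes that rose through a few CCl4 members were bound to lie at the right. The contrast with genes that fell is thus partly fixed by the axis.

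After Car3, the sharpest falls outside the rule were in Cd209d and Cd209a, lectins of the DC-SIGN family that bind glycans on pathogens. Cd209d belongs to the identity list of plasmacytoid dendritic cells. Cd209a belongs to the list of conventional dendritic cell markers and served to choose those cells below. Cd209d had 70.8 and 58.6 CPM in CCl4 members and 233 and 285 CPM in corn oil members. It fell by 1.97 on the log2 scale (SE 0.27, adjusted p = 0.0029 by edgeR). Every CCl4 library lay far below every corn oil library, and other cells had at most 1.18 CPM. After thinning, Cd209d was found in 10% and 3.33% of CCl4 members and in 36.6% and 40.8% of corn oil members, so fewer members had a molecule of it. Cd209a had 80.9 and 71.1 CPM against 318 and 230.2 CPM, and fell by 1.88 (SE 0.26, adjusted p = 0.0036). The genes lie close together on chromosome 8 (GRCm38 chr8:3871824-3878555 and chr8:3743397-3748984, both on the minus strand), and the headers do not say how reads matching several members of this gene family were divided, so the split between the 2 genes is uncertain.

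The gene of the chemokine Ccl4 (MIP-1β) fell in CCl4 members. It had 246 and 433 CPM in CCl4 members and 1045 and 1284 CPM in corn oil members, and fell by 1.78 on the log2 scale (SE 0.24, adjusted p = 0.0029 by edgeR). Without the members rich in other lineages, which held 29.7% of its CCl4 UMIs, it fell by 2.09 (SE 0.21, adjusted p = 3.1e-05). In the sum of all other cells of the same mice Ccl4 was higher, with 103 and 97.2 CPM in CCl4 mice. Corn oil mice had 53.1 and 56.3 CPM there (log2 fold change 0.80, adjusted p = 0.013 by edgeR). The mix of cell types in that sum differed, with 37.0% and 44.7% of kept cells below the endothelial limit in CCl4 mice. In corn oil mice 11.4% and 11.9% were, so a higher sum need not mean a rise within a cell type. The neighbouring chemokine Ccl3 had 42.2 and 123 CPM in CCl4 members and 58.8 and 248 CPM in corn oil members, groups that overlapped.

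Cxcr4, the receptor that holds cells where its ligand CXCL12 is made, had 115 and 52.3 CPM in CCl4 members and 243 and 248 CPM in corn oil members. It fell by 1.53 (SE 0.31, adjusted p = 0.029 by edgeR). Cxcr4 lost the call in 6 of 16 alternatives, among them DESeq2 (adjusted p = 0.064) and edgeR without the endothelial limit (-1.13, adjusted p = 0.145). It was found in 20% and 5.56% of thinned CCl4 members and 37.6% and 46.9% of thinned corn oil members. In the sum of other cells, whose mix differed as given for Ccl4, Cxcr4 was higher in CCl4 mice. It had 38.5 and 38.7 CPM there and 12.4 and 13.5 CPM in corn oil mice (log2 fold change 1.51, adjusted p = 0.0047 by edgeR). Among 27 tested genes of migration and adhesion, 2 fell (Ccl4, Cxcr4; 0.233% of all genes) and 1 rose (0.8% of all genes), Itgam (listed at 0 in both corn oil libraries and with 89.6% of its CCl4 UMIs in the 17 members), with a median log2 fold change of -0.22 against -0.003 for all genes. Ccr9, which the rule used, had 1912 and 1326 CPM in CCl4 members and 1925 and 2320.3 CPM in corn oil members.

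Both chains of the MHC class II molecule I-A fell in CCl4 members. H2-Aa had 1536 and 1295 CPM in CCl4 members and 2243 and 3187 CPM in corn oil members, and fell by 0.94 (SE 0.18, adjusted p = 0.023 by edgeR). H2-Ab1, the partner chain, had 1025 and 949.6 CPM against 1625 and 2187 CPM, and fell by 0.94 (SE 0.17, adjusted p = 0.018). H2-Aa lost the call in 3 of 16 alternatives and H2-Ab1 in 2. Both lost it without the highest doublet scores (adjusted p = 0.0723 and 0.0652 by edgeR) and without corn oil 1. H2-Aa also lost it without the endothelial limit (adjusted p = 0.0615 by edgeR). H2-Eb1 had 558 and 529 CPM against 708 and 1181 CPM but did not pass (adjusted p = 0.16), nor did the invariant chain Cd74, with 2206 and 1694 CPM against 2034 and 3023 CPM (adjusted p = 0.71). Of 19 tested genes of antigen presentation, 2 fell and 0 rose, 3 had a positive fold change, and the median was -0.37. Over all 6000 genes 0.233% fell, 2975 had a positive fold change, and the median was -0.003. H2-Aa was found in 63.3% and 54.4% of thinned CCl4 members and 79.6% and 85.7% of thinned corn oil members.

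Further genes that fell have varied roles. Cd7, a surface glycoprotein of lymphoid cells and of plasmacytoid dendritic cells, had 555 and 563 CPM in CCl4 members and 1037 and 1127 CPM in corn oil members (log2 fold change -0.95, SE 0.17, adjusted p = 0.014 by edgeR). Zfp36l2, an RNA-binding protein that promotes decay of short-lived mRNAs, had 553 and 954 CPM against 1652 and 1866 CPM (-1.22, SE 0.22, adjusted p = 0.018). Hivep3, a zinc-finger regulator, had 191 and 140.1 CPM against 417 and 376 CPM (-1.27, SE 0.23, adjusted p = 0.016). Tsc22d3, the glucocorticoid-induced leucine zipper gene, had 147 and 132 CPM against 289 and 327 CPM (-1.13, SE 0.23, adjusted p = 0.029), and the tubulin Tuba1a had 55.6 and 52.3 CPM against 158 and 109 CPM (-1.36, SE 0.30, adjusted p = 0.042). The unnamed gene AC140186.1 had 180.4 and 163 CPM in CCl4 members and 385 and 303 CPM in corn oil members, and at most 2.45 CPM in other cells (-1.02, SE 0.22, adjusted p = 0.042). In none of these 6 genes did a CCl4 library reach a corn oil library, as in 37.0% of all genes tested. Tuba1a and AC140186.1 lost the call in 10 of 16 alternatives each. Tsc22d3 lost it in 6, Hivep3 and Cd7 in 4 each, and Zfp36l2 in 2. Without the members rich in other lineages Cd7 did not pass (-0.79, adjusted p = 0.056 by edgeR).

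The largest fall, by 5.61 (SE 0.81, adjusted p = 0.0037 by edgeR), was in Car3, a carbonic anhydrase abundant in hepatocytes and fat. It had 3.37 and 0 CPM in CCl4 members and 58.8 and 176 CPM in corn oil members, from 2 and 51 UMIs. Other cells had 6.15 and 2.76 CPM in CCl4 mice and 58.5 and 58.6 CPM in corn oil mice, so the members' level moved with that of their surroundings. The part of free hepatocyte RNA in this result was not tested. The 14th gene that fell, Ehd3, belongs to the endothelial genes of the rule and is not read as a result.

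**Figure D3:**
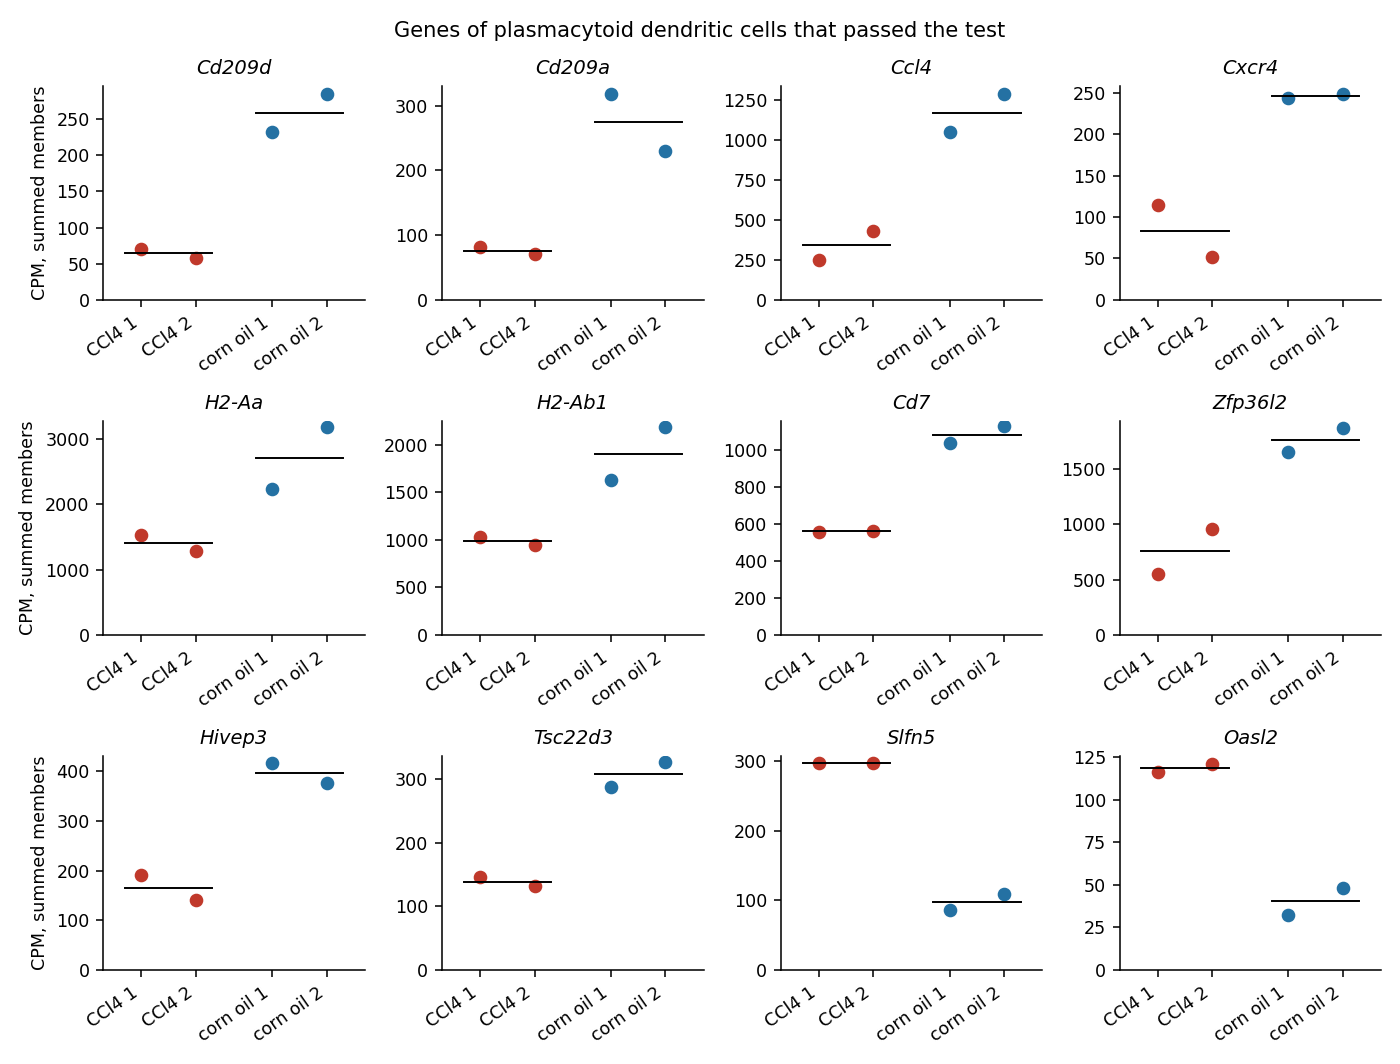
CPM of 12 called genes in the summed members of each library (points) with group means (lines), CCl4 at the left of each panel and corn oil at the right. In all 12 panels the libraries of the groups separate, as they do in all 62 called genes, from which the panels were chosen, and in 37.0% of all genes tested. The first 10 genes are lower and Slfn5 and Oasl2 higher in CCl4 members.

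Interferons themselves were not detected. The 20 listed type I and type III interferon genes had a column for 6, and these had 0 UMIs among the 1610269 of all members, which allows up to 1.86 CPM, and 6 UMIs in all other cells. Of 26 interferon-stimulated genes tested, 2 rose and 0 fell by edgeR, 22 had a positive fold change, and the median was 0.57. Over all 6000 genes 0.8% rose, 2975 had a positive fold change, and the median was -0.003. Without the members rich in other lineages the median was 0.59 over 25 genes, with 22 again positive. The whole list of 48 genes summed to 9373 and 9755 CPM in CCl4 members and 7752 and 7573 CPM in corn oil members. The list was also higher in CCl4 mice outside the members. Conventional dendritic cells, chosen as given below, had 5892 and 6227 CPM against 4608 and 4570 CPM. All other kept cells had 6527 and 6910 CPM against 5710 and 5073 CPM. That last sum mixes cell types whose shares differed between the groups.

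Slfn5, a Schlafen family gene induced by type I interferon, had 297 and 297 CPM in CCl4 members and 85.5 and 109 CPM in corn oil members, and rose by 1.65 on the log2 scale (SE 0.26, adjusted p = 0.0058 by edgeR). It was found in 31.7% and 21.1% of thinned CCl4 members and in 9.68% and 20.4% of thinned corn oil members, against 54.3% to 58.5% of other cells. Without the endothelial limit its log2 fold change was 0.57 and did not pass. In other cells Slfn5 had 546 and 466 CPM in CCl4 mice and 486 and 436 CPM in corn oil mice. Oasl2, of the oligoadenylate synthetase family that responds to viral RNA, had 116 and 121 CPM against 32.1 and 48.5 CPM and rose by 1.65 (SE 0.34, adjusted p = 0.030 by edgeR), but not without the members rich in other lineages (1.68, adjusted p = 0.061). In other cells it had 205 and 213 CPM in CCl4 mice and 117 and 83.2 CPM in corn oil mice.

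Ifi44 had 132 and 125 CPM in CCl4 members and 69.5 and 30.3 CPM in corn oil members, and passed only without the members rich in other lineages (log2 fold change 1.58, SE 0.33, adjusted p = 0.049 by edgeR; 1.20, SE 0.33 and adjusted p = 0.16 with all). The mitochondrial protein gene Ifi27l2a had 285 and 293 CPM against 123 and 158 CPM (log2 fold change 1.08, SE 0.24, adjusted p = 0.052), and the ubiquitin-like modifier Isg15 had 50.6 and 48.1 CPM against 13.4 and 6.06 CPM (2.13, SE 0.55, adjusted p = 0.11). In these 3 genes both CCl4 libraries were above both corn oil libraries, and 37.0% of all genes had groups that did not overlap. Irf7 and Bst2 overlapped between the groups. The master regulator Irf7 had 108 and 167 CPM in CCl4 members and 142 and 151 CPM in corn oil members, with adjusted p = 0.99. Bst2 (tetherin) had 1040.5 and 642 CPM against 778 and 963 CPM, with adjusted p = 1.00.

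The bases just upstream of Slfn5, Oasl2 and Isg15 are shown because the first 2 rose and the third holds the most copies of a motif of the interferon-stimulated response element. The search was for GAAA, any 2 bases and a second GAAA, on either strand, in the 250 bases before the gene start in RefSeq's promoter table (GRCm38.p6), and capitals mark matches. The windows are chr11:82951852-82952101 (plus strand), chr5:114896684-114896933 (plus strand) and chr4:156200819-156201068 (minus strand), each printed 5′ to 3′ along its gene. The RefSeq start of Slfn5 lies downstream of the GENCODE vM21 start.
Slfn5: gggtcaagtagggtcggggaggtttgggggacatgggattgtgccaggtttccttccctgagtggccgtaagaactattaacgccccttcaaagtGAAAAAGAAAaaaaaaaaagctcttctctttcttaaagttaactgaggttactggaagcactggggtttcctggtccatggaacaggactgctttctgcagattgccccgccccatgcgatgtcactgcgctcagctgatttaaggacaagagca
Oasl2: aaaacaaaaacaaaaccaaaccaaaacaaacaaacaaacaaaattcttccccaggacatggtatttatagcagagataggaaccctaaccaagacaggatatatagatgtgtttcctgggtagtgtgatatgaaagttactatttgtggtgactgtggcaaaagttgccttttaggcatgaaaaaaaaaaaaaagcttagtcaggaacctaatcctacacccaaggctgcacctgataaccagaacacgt
Isg15: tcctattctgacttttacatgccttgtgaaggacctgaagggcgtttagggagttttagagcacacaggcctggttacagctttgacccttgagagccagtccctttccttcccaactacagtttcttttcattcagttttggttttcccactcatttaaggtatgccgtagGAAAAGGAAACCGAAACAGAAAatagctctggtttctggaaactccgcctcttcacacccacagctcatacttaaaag
Slfn5 held 1 match starting 155 bases before the gene start, Oasl2 held 0, and Isg15 held 3 overlapping matches, the most distant starting 78 bases before the start. The motif lay in 2.98% of all 32851 windows and in 10 of 25 windows (40.0%) of the 21 tested interferon-stimulated genes that the table holds. A match describes letters in the window and not a site of binding.

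**Figure D4:**
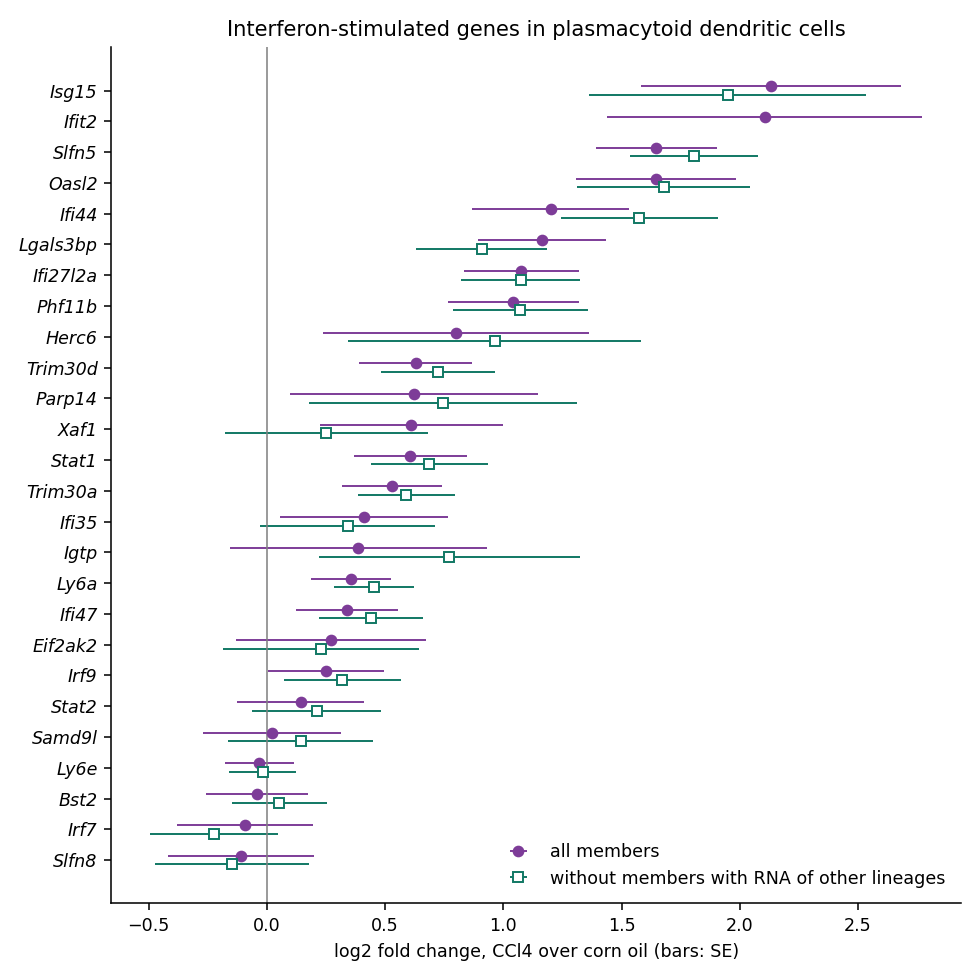
Log2 fold change (CCl4 over corn oil) with SE for the 26 tested interferon-stimulated genes, with all members (filled circles) and without the members with RNA of other lineages (open squares). For 22 of 26 the filled circle lies above 0, and Slfn5 and Oasl2 passed the test.

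The machinery that senses nucleic acids did not pass the test in any of 29 genes, with a median log2 fold change of 0.00. Tlr7 had 202 and 146 CPM in CCl4 members and 200.5 and 254 CPM in corn oil members (adjusted p = 0.85), and Unc93b1, which delivers such receptors to endosomes, had 976 and 1169 CPM against 1235 and 891 CPM (adjusted p = 1.00). Of 23 tested inhibitory and regulatory receptors 0 passed and 0 of 38 genes of the secretory pathway. The secretory chaperone Hspa5 had 1408 and 1297 CPM in CCl4 members and 1296.5 and 1066 CPM in corn oil members (adjusted p = 0.90). Of 42 tested genes of the identity list only Cd209d passed, and the median was -0.16. Over all 6000 genes 1.03% passed, so 0 or 1 in lists of these sizes does not show a lack of change. Tcf4 had a log2 fold change of -0.35 (SE 0.16, adjusted p = 0.66).

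Among 27 tested dendritic cell transcription factors, 2 rose, beside 0.8% of all genes tested. Id2 had 69.1 and 257 CPM in CCl4 members and 16.0 and 6.06 CPM in corn oil members, a log2 fold change of 3.61 (SE 0.72, adjusted p = 0.028 by edgeR). It was found in 9.17% and 18.9% of thinned CCl4 members and 4.30% and 0% of thinned corn oil members. The 17 members rich in other lineages held 40.9% of its CCl4 UMIs, and without them it still rose by 2.98 (SE 0.56, adjusted p = 0.023). Without the endothelial limit its log2 fold change was 0.88 and did not pass. Id2 lost the call in 6 of 16 alternatives, among them DESeq2 (adjusted p = 0.21) and limma-voom (adjusted p = 0.65). Unthinned, only 5 of 93 and 1 of 49 corn oil members held a UMI of Id2. Its level in the members stayed below that in other cells, where it was between 404 and 596 CPM. Id3, a related inhibitor, had 189 and 199 CPM against 69.5 and 54.5 CPM and rose by 1.59 (SE 0.28, adjusted p = 0.016), but not without those members (1.02, adjusted p = 0.48).

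In the list of transitional dendritic cells, which lie between the plasmacytoid and conventional kinds, 3 of 21 rose and 1 fell, beside 0.8% and 0.233% of all genes tested. Those that rose were Id2, Lyz2 and the antiviral membrane protein Ifitm3, and the one that fell was Cd7. Ifitm3 had 253 and 266 CPM in CCl4 members and 32.1 and 66.6 CPM in corn oil members (log2 fold change 2.54, SE 0.33, adjusted p = 0.0029 by edgeR), with 73.6% of its CCl4 UMIs in the 17 members, and did not pass without them (1.33, adjusted p = 0.33). Without those members 1 of 19 rose, Id2, and the median was -0.46. In other lists the genes that rose were the phosphatase Dusp1 and the metallothioneins Mt1 and Mt2 among 35 immediate early and stress genes, the receptor Csf1r among 23 cytokine receptors, and the glycolytic enzyme Gapdh among 26 metabolic genes. None of these 5 passed without the members rich in other lineages, where Mt1, Mt2 and Csf1r were too low to be tested.

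Gapdh had 506 and 600.3 CPM in CCl4 members and 289 and 279 CPM in corn oil members, a log2 fold change of 0.96 (SE 0.20, adjusted p = 0.032 by edgeR), with 27.1% of its CCl4 UMIs in the 17 members. Shisa5, an endoplasmic reticulum gene, had 268 and 245 CPM against 109.6 and 121 CPM and rose by 1.16 (SE 0.25, adjusted p = 0.035), but not without the members rich in other lineages (1.01, adjusted p = 0.16), who held 22.1% of its CCl4 UMIs. Its call was lost in 9 of 16 alternatives. In the list of clock and glucocorticoid genes 1 of 6 tested fell, beside 0.233% of all genes. It was Tsc22d3, which is a glucocorticoid target and not a clock gene. Of 6 tested cell cycle genes 0 passed, beside 1.03% of all genes.

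Conventional dendritic cells of the same mice gave the closest comparison. They were taken as kept cells under the same limits on endothelial genes, Clec4f and Cd79a, with at least 3 UMIs of Xcr1 and Clec9a summed or of Cd209a, at least 1 of Flt3 and Zbtb46 summed and fewer than 5 of Siglech, and numbered 51 and 55 in CCl4 mice and 44 and 28 in corn oil mice. The CCl4 effect differed between the cell types in 75 of 6293 genes (1.19%) by edgeR's interaction test with mouse as a block. It was higher in plasmacytoid cells in 59 genes (0.938%) and lower in 16 (0.254%). Without the members rich in other lineages it was higher in 13 (0.21%) and lower in 24 (0.388%) of 6183. All 16 of the lower genes and 8 of the 59 higher genes were called again. Conventional cells were not filtered alike, so RNA of other lineages was left out on the plasmacytoid side only. In conventional cells the 13 Kupffer genes summed to 343 and 368 CPM in CCl4 mice and 969 and 180 CPM in corn oil mice.

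For the chemokine Ccl4 the CCl4 effect was lower in plasmacytoid cells. Conventional cells had 126 and 112 CPM in CCl4 mice and 144 and 126 CPM in corn oil mice, and the difference of the effects was -1.49 on the log2 scale (SE 0.36, adjusted p = 0.048 by edgeR). It did not pass without CCl4 1 (-1.02, adjusted p = 0.40), without the mouse block (adjusted p = 0.18) or by DESeq2 (adjusted p = 0.94). By DESeq2 the differences in Zfp36l2, Cd7, Ccr2, Bst2, Id2 and Nfkbia did not pass either, with adjusted p between 0.26 and 1, and without the mouse block Zfp36l2, Ccr2 and Bst2 did not pass. Zfp36l2 had 1701 and 1832 CPM against 1632 and 1846 CPM in conventional cells, a difference of -1.21 (SE 0.22, adjusted p = 0.0065). For Cd7, conventional cells had 66.1 and 180.4 CPM in CCl4 mice and 31.3 and 0 CPM in corn oil mice, a difference of -3.42 (SE 0.60, adjusted p = 0.0040). H2-Aa had 12541 and 9423 CPM against 12267 and 11997 CPM, and its difference of -0.68 (SE 0.16) narrowly missed with all members (adjusted p = 0.053) and passed without those rich in other lineages (-0.65, adjusted p = 0.0064). Cxcr4 did not pass, with a difference of -1.32 (SE 0.38, adjusted p = 0.16). Cd209a was used to choose the conventional cells and is left out here.

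The effects also differed in Ccr2, Bst2, Id2 and Nfkbia. In conventional cells alone, Bst2 rose (adjusted p = 0.045 by edgeR) and Ccr2 (0.11), Nfkbia (0.094) and Id2 (0.87) did not pass. The monocyte chemokine receptor Ccr2 had 1178 and 1837 CPM in conventional cells of CCl4 mice and 763 and 980.2 CPM in those of corn oil mice, while plasmacytoid cells had 263 and 366 CPM against 398 and 388 CPM (difference -1.05, SE 0.24, adjusted p = 0.034 by edgeR). Bst2 had 111 and 122 CPM against 34.4 and 30.1 CPM in conventional cells (difference -1.79, SE 0.41, adjusted p = 0.038). Ccr2 lost the call without CCl4 2 (adjusted p = 0.15) and without corn oil 1 (0.36), and Bst2 without CCl4 2 (0.30). Id2 was at 2390 and 1951 CPM against 2151 and 2393 CPM in conventional cells, and its difference was 3.62 (SE 0.71, adjusted p = 0.011). The NF-κB inhibitor Nfkbia had 256 and 222 CPM in CCl4 plasmacytoid cells against 142 and 121 CPM in corn oil ones, and 490.0 and 483 CPM against 663 and 859.9 CPM in conventional cells (difference 1.52, SE 0.30, adjusted p = 0.011). For Slfn5 the effects were not shown to differ (difference 0.82, SE 0.32, adjusted p = 0.46), with 499 and 640.2 CPM in conventional cells of CCl4 mice and 294 and 307 CPM in those of corn oil mice.

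**Figure D5:**
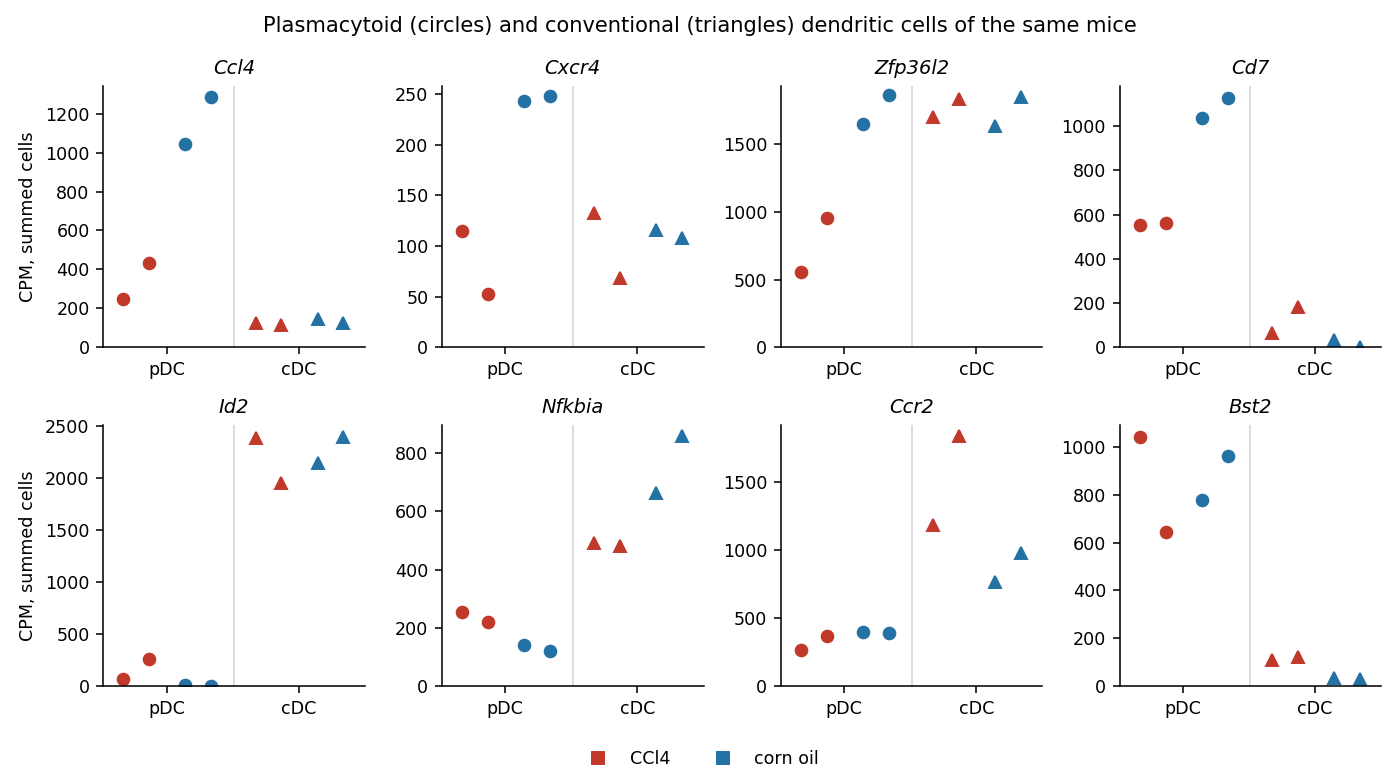
CPM of 8 genes in summed plasmacytoid (pDC, circles) and conventional (cDC, triangles) dendritic cells of each mouse, with CCl4 in red and corn oil in blue. Ccl4, Zfp36l2 and Cd7 are lower in CCl4 than in corn oil plasmacytoid cells, and the effect differed from that in conventional cells by the interaction test, while Ccr2 and Bst2 are higher in conventional cells of CCl4 mice than in those of corn oil mice.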

How the data were processed

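Liver nonparenchymal cells of 4 mice were captured on BD Rhapsody cartridges. The deposited tables hold counts of molecules (UMIs) per cell and gene, produced by the authors on GRCm38 with GENCODE vM19 annotation, per the file headers, which name BD's WTA Rhapsody pipeline (1.9.1) and no aligner. UMIs of the members were summed per mouse and tested with edgeR 4.0.16 (TMM, filterByExpr, quasi-likelihood F test, Benjamini-Hochberg, called at adjusted p under 0.05), with DESeq2 1.42.0, limma-voom (limma 3.58.1), RLE factors, no filter and other limits of the rule as alternatives, in R 4.3.3, Python 3.11.15, numpy 2.4.6, pandas 2.3.3 and scipy 1.17.1. Shares were tested by exact permutation. Doublets were scored per library against simulated doublets, and leaving out the 5% of cells with the highest scores, 2 and 3 members of CCl4 mice and 0 and 0 of corn oil mice, was an alternative. The members and the 25 gene lists were chosen with earlier results of these data known. Genes are named by rules: the 12 highest and lowest called genes with at least 20 CPM, called list members, genes of the rule and markers, abundant list members, the 6 interaction genes of smallest p, and the 15 leading identity genes with at least 50 CPM. Ifi44, Isg15, Irf7, H2-Eb1, Ccl3, Cd4, Cd8a, Mki67, Top2a, Tlr7 and the interaction genes other than those 6 were named after their values were seen, and leaving out members rich in other lineages was added then. Gene positions are from GENCODE vM21. Counts were also simulated from the corn oil means, with the same coefficient of variation of 0.16 for every gene and changes only in genes of at least 50 CPM. Over 5820 genes, 40% of 2-fold and 92% of 4-fold changes were recovered, with 3 false calls. Members holding most UMIs of a gene were not simulated, so these rates do not cover such genes or genes of lower level. The labels do not say whether same-numbered mice were paired, and the replicate number was not a block in the main fit. Results on some genes are not reported here.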

Additional observations from a re-analysis of the deposited data

Results flagged for a closer look

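The 6 interaction genes of smallest p were picked out because the CCl4 effect on them differed between plasmacytoid and conventional dendritic cells by edgeR. The differences on the log2 scale were 8.14 for fibronectin (Fn1), 10.26 for Col1a1, 8.03 for C1qb, 4.26 for decorin (Dcn), 6.29 for Ccl6 and 4.32 for Lyz2, all higher in plasmacytoid cells. Fn1, Col1a1, C1qb, Dcn and Lyz2 belong to the lists by which the 17 members rich in other lineages were picked, so high shares in those members were largely fixed by that choice, and only Ccl6 lies outside the lists. The 17 CCl4 members rich in other lineages held 90.1% of the CCl4 UMIs of Fn1, 97.2% of Col1a1, 90.5% of C1qb, 92.7% of Dcn, 81.7% of Ccl6 and 90.6% of Lyz2. Without those members Ccl6 and C1qb still passed, Dcn and Lyz2 did not, and Fn1 and Col1a1 were too low to be tested. Corn oil 1 also stood apart among conventional cells, where Fn1 had 24.0 and 25.4 CPM in CCl4 mice and 513 and 18.0 CPM in corn oil mice, and C1qb had 6.01 and 22.9 CPM against 294 and 0 CPM. Without corn oil 1 the differences were 7.34 for Fn1 (adjusted p = 0.23 by edgeR), 7.05 for Col1a1 (adjusted p = 1) and -1.08 for C1qb (adjusted p = 0.94), none of which passed, while Dcn, Ccl6 and Lyz2 still did.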

How the results depend on the processing

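Counts of genes that rose and fell in CCl4 members, 48 and 14, were 48 and 14 with RLE factors, 158 and 47 without a filter on low counts, 20 and 9 by DESeq2, and 6 and 11 by limma-voom. Other limits gave 19 and 10 with Siglech at 10 UMIs, 46 and 81 without the endothelial limit, 3 and 12 without members rich in other lineages, and 4 and 4 without the highest doublet scores. Leaving out a mouse gave 0 to 91 that rose and 0 to 43 that fell. The interaction counts, 59 higher and 16 lower, were 56 and 17 with RLE factors, 107 and 24 without a filter, 15 and 1 by DESeq2, 21 and 3 without the mouse block, and 13 and 24 without members rich in other lineages, and leaving out a mouse gave 29 to 108 higher and 17 to 26 lower.

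The log2 ratio of shares, 0.81, was 0.39 to 1.39 with a mouse left out and -0.99 among cells below the endothelial limit. With the replicate number as a block 91 genes rose and 56 fell. Deviations from the group means correlated at 0.103 between same-numbered mice. With 2 mice per group both pairs must give the same value, so it cannot settle whether mice were paired. Without the endothelial limit Dusp1 (-0.64), Mt1 (-0.22), Mt2 (-0.012) and Igfbp7 (-0.78) reversed, as did Igfbp7 without members rich in other lineages (-0.23) and the C1qb interaction without corn oil 1 (-1.08, and up to 8.58 with another mouse left out). The cause was not tested. Cd209a, Cd209d and Ccl4 lost the call only without corn oil 1. With 49 members in corn oil 2, changes in genes of low level could not be resolved.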
